A study of Mus musculus with 6 samples.

Results

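The genes described here encode the potassium, sodium and calcium channels of the heart together with their accessory subunits. They were taken from the array by symbol alone, as probes for genes named Kcn (potassium), Hcn (pacemaker), Scn (sodium) or Cacn (voltage-gated calcium), which gave 180 probes of 118 genes among 25697 probes with 18138 symbols. Total RNA from the hearts of 3 hSRY-ON and 3 hSRY-OFF mice, all male FVB pups (FVB/N in the methods) at postnatal day 6, was hybridized to 1 MouseRef-8 v2.0 BeadChip each. In the hSRY-ON pups a single copy of Signalox-hSRY at the H11 locus had been recombined in the single-cell embryo by Cre protein carried over from the oocyte of a Ddx4-Cre mother, so that FLAG-tagged human SRY and EGFP were under the CAG promoter throughout the body, and the pups chosen for the arrays had not inherited Ddx4-Cre themselves. The methods define hSRY-OFF as carrying the transgene without recombination, while control littermates elsewhere in the study had Ddx4-Cre only or no transgene, so the genotype of the 3 control hearts is not settled. The transgene was also active outside the heart, among other organs in brain and lung. A change that arose in the heart and one brought about from other organs therefore cannot be told apart.

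The action potential of a heart cell is shaped by these channels in turn. Sodium channels carry the upstroke, calcium channels carry the plateau and trigger contraction, and potassium channels return the cell to rest and hold it there. Hcn channels and the T-type calcium channels encoded by Cacna1g and Cacna1h open at negative voltages and are known for their part in pacemaking and in the immature heart, where several of these genes change their level around birth. Most of the pore-forming proteins work with accessory subunits that set how much channel reaches the membrane and how fast it opens and closes.

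Most channel probes were too dim to compare. A probe was counted as detected when it was brighter than the array's own negative-control beads (detection p-value under 0.05), and between 43 and 56 of the 180 channel probes were detected on each array, or 23.9% to 31.1%, against 47.2% to 51.3% of all probes. On 3 or more of the 6 arrays 50 channel probes of 39 genes were detected, and these were tested. Of the 180 probes 104 were detected on no array, and 58 genes had no probe detected on any array. By class, 32 of 125 potassium channel probes, 1 of 5 Hcn probes, 6 of 14 sodium channel probes and 11 of 36 calcium channel probes were tested. None of the 11 probes of the calcium channel gamma subunits was tested. A channel gene that was not detected may still be present below the background of the array.

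**Figure D1:**
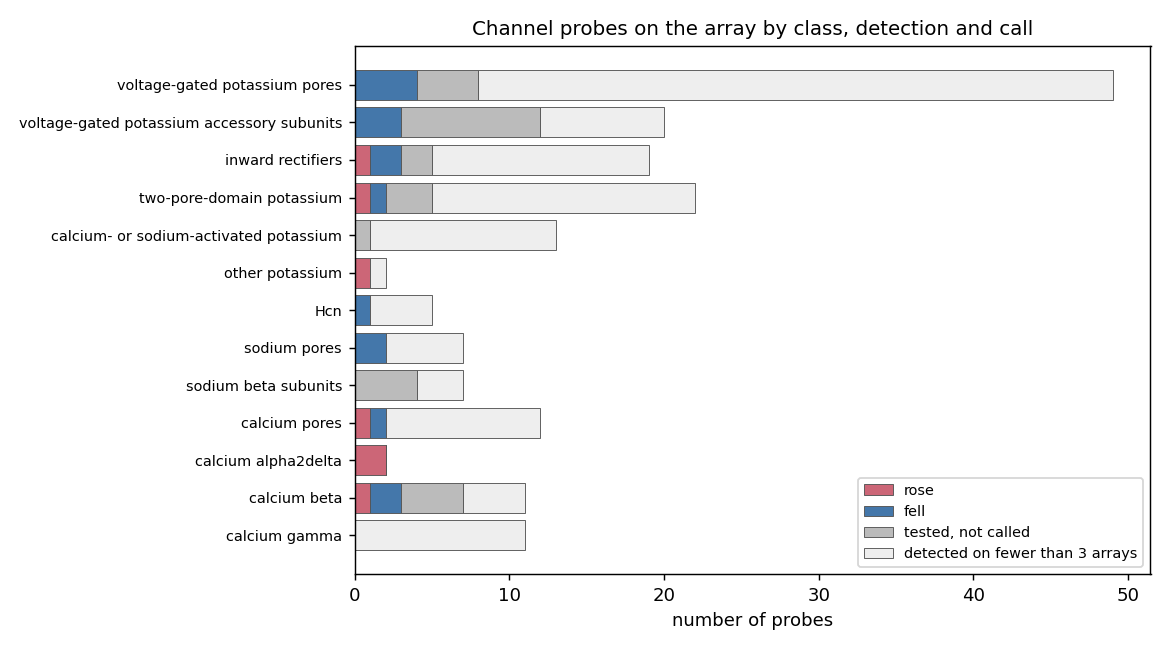
Number of channel probes on the array (horizontal axis) for each class, divided into probes that rose or fell in hSRY-ON at an adjusted p under 0.05, probes tested and not called, and probes detected on fewer than 3 of the 6 arrays. In the voltage-gated potassium pores 8 of 49 probes were tested, while both alpha2delta probes of the calcium channels were.

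The channel genes fell more often than they rose in the hSRY-ON hearts. Of the 50 tested probes 16 fell, which belong to 14 genes, and 7 probes of 7 genes rose, at a Benjamini-Hochberg adjusted p under 0.05 in limma's moderated test. Over all 12970 tested probes 27.5% were called, 13.7% having fallen and 13.8% risen. Among the channel probes the shares were 46.0% called, 32.0% fallen and 14.0% risen, so the share that rose was close to that of the array. The channel probes include several for the same gene, and with the brightest probe of each of the 39 genes 13 fell and 6 rose. Probes tested only through the group in which they are bright had to differ, so the 32 channel probes detected on all 6 arrays were also counted alone. Of these 10 fell and 4 rose, 43.8% together, where 27.4% of all probes detected on all 6 arrays were called, 14.1% fallen and 13.2% risen. The 3 hSRY-ON hearts lay on 1 side of the 3 hSRY-OFF hearts in 29 of the 50 channel probes, 20 below and 9 above. Over all tested probes 45.2% separated the groups, 21.6% with hSRY-ON below and 23.6% above. An unadjusted p under 0.05 was found for 27 channel probes, against 40.3% of all tested probes, and 12 channel probes were both called and changed at least 2-fold, against 9.41%. Without normalization between arrays the tested probes of the whole array had a median change of -0.12 on the log2 scale and 38.5% of the calls on the array were rises, against 50.1% with it. The channel counts were then 13 fallen and 3 risen. The number that rose was also 3 without hSRY-ON replicate 1, and the number that fell was 9 without hSRY-OFF replicate 1.

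Probes that rose were found among the potassium and calcium channels, and probes that fell in all 4 classes. In the potassium channels 10 of 32 tested probes fell and 3 rose, with a median log2 fold change of -0.24. The only Hcn probe tested fell, both sodium channel pores fell, and none of the 4 sodium channel beta subunits was called by limma, with 0 at an unadjusted p under 0.05. In the calcium channels 4 of 11 tested probes rose and 3 fell, with a median of 0.18. The median of all tested probes was near 0, and their median absolute change was 0.30 on the log2 scale, against 0.49 for the channel probes. The difference between classes was not tested. The number of potassium channel probes called was 13 with all hearts and 6, 8 and 8 without hSRY-OFF replicate 1, hSRY-OFF replicate 2 and hSRY-ON replicate 1.

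**Figure D2:**
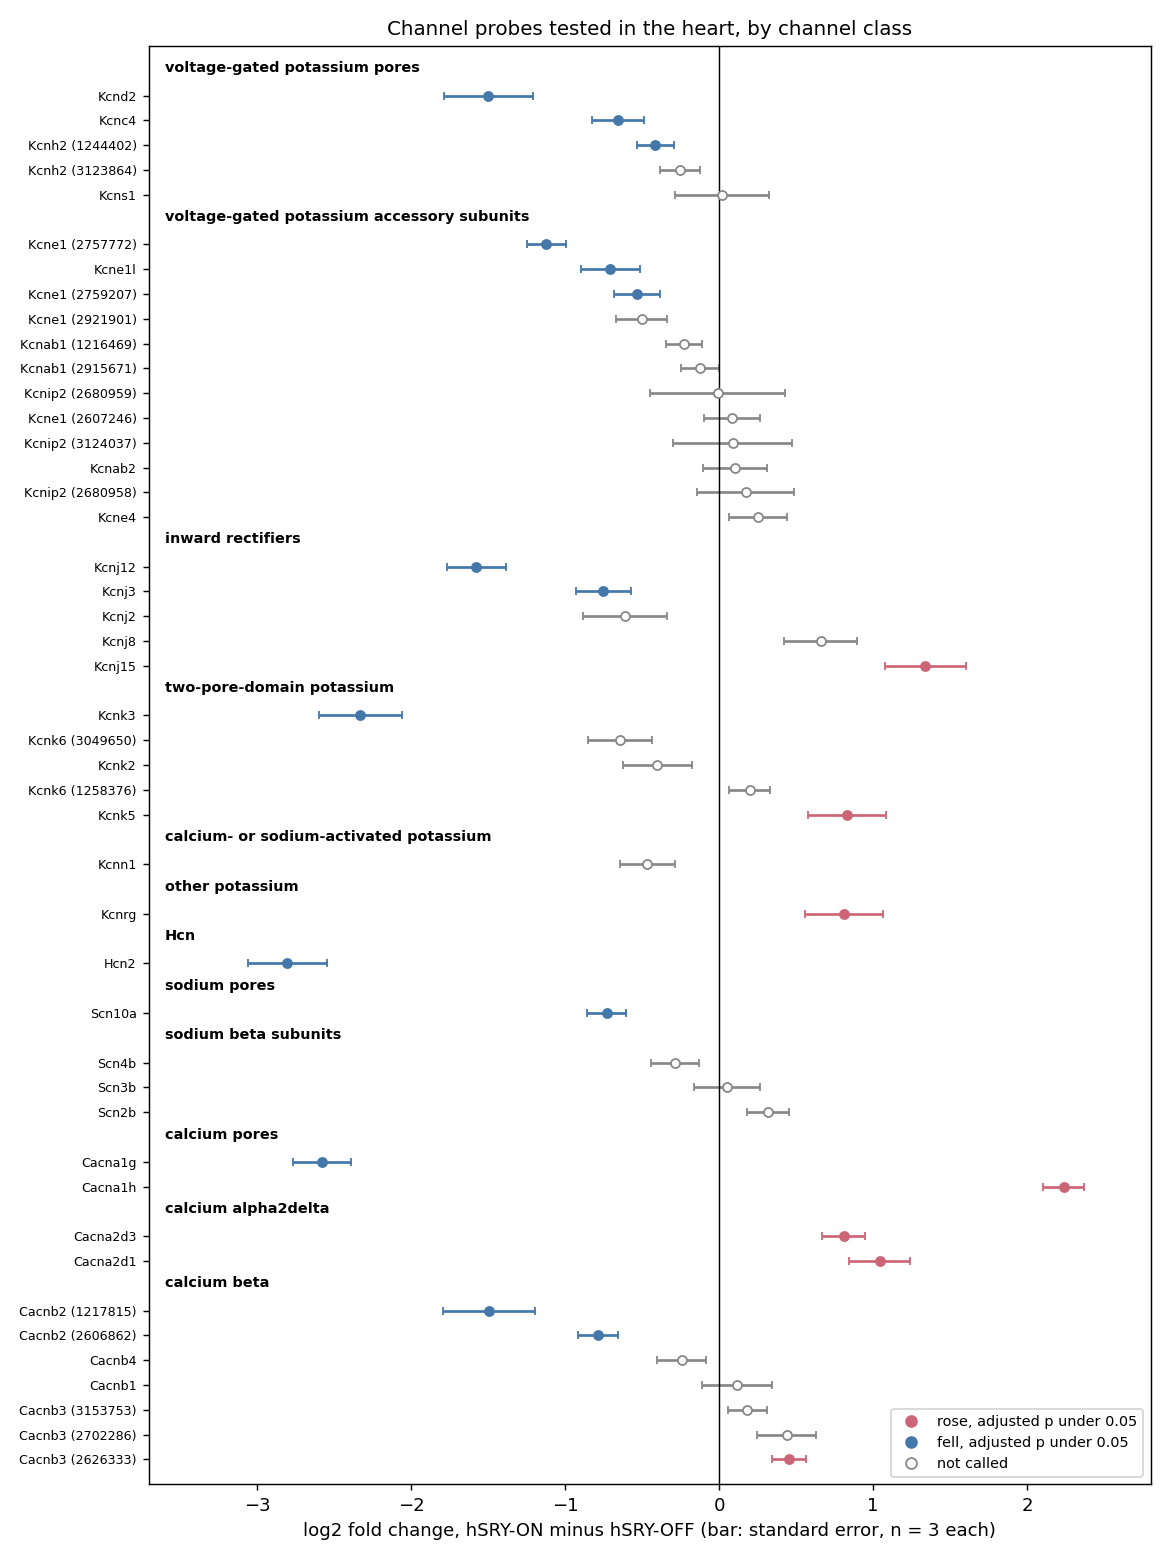
The log2 fold change of 45 of the 50 tested channel probes (horizontal axis, hSRY-ON minus hSRY-OFF) with its standard error (bar, n = 3 hearts in each group), arranged by class, with the number of the probe where a gene has several. Filled points were called at an adjusted p under 0.05. Hcn2, Cacna1g and Kcnk3 lie farthest to the left, between -2.80 and -2.33, and Cacna1h farthest to the right, at 2.24.

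Sequences upstream of a listed start site are given for 5 called channel genes from the RefSeq promoters of GRCm38.p6. They are shown because human SRY is a DNA-binding protein of the SOX family, whose known core motif AACAAT was searched on both strands. Capitals mark a match. Each window holds the 250 bases before the listed start, 5′ to 3′, on the plus strand. The windows of Kcnj12, Cacna2d1 and the later Cacnb2 start lie inside the annotated gene, past its first base.
Hcn2, fell, chr10:79716384-79716633: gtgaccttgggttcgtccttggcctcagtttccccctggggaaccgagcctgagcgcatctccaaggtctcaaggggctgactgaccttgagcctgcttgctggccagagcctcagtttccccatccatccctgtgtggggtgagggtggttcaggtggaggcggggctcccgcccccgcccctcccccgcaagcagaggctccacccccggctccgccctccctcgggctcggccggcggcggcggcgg
Kcnd2, fell, chr6:21215096-21215345: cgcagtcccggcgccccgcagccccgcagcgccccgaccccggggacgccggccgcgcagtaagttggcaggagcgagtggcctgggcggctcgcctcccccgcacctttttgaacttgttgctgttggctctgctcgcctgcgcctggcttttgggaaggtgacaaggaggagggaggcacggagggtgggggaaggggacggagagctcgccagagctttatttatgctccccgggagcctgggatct
Kcnj12, fell, chr11:61065554-61065803: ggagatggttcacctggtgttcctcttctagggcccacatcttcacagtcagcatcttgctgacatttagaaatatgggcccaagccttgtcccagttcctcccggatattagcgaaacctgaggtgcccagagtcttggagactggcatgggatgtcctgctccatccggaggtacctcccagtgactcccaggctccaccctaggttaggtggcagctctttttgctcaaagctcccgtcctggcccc
Cacnb2, fell, later of 2 starts, chr2:14823842-14824091: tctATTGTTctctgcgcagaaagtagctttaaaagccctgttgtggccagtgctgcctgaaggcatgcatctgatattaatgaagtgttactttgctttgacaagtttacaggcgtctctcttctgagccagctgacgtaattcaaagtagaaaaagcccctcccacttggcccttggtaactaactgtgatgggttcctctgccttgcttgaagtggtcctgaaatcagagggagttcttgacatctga
Cacna2d1, rose, chr5:15934441-15934690: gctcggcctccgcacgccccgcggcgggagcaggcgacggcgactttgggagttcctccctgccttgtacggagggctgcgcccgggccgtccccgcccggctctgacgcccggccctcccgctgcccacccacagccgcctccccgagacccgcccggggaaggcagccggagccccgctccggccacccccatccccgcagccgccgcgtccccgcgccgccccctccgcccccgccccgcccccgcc
Of these windows only that of the later Cacnb2 start held the motif, on the minus strand. Taking the first listed start of each gene, it was in 0 of 9 windows of channel genes that fell, 0 of 6 of those that rose and 0 of 13 of those tested and not called. It was in 5 of 86 windows of all channel genes (5.81%) and in 9.65% of the 27025 windows of all genes. The windows of the channel genes that fell had a median GC content of 68.0% and those of all genes 52.0%. Called genes with no listed window, among them Cacna1g, Kcnk3, Kcne1 and Cacna1h, are in none of these counts. A window without these letters says nothing about binding elsewhere in the gene.

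The T-type calcium channels changed in opposite directions, and the pacemaker channel gene Hcn2 had the largest decrease of the channel probes. All levels below are background-corrected, quantile normalized log2 intensities, given for replicates 1, 2 and 3 of each group. Hcn2, which encodes a pacemaker channel found throughout the heart, was at 8.43, 8.63 and 7.85 in the hSRY-OFF and 5.91, 5.43 and 5.15 in the hSRY-ON hearts. Each hSRY-ON heart was more than 1 unit below each hSRY-OFF heart, and the log2 fold change was -2.80 (standard error 0.26, adjusted p = 0.00047), a 6.99-fold decrease. In bulk tissue, fewer cells that express a gene and less RNA per cell cannot be told apart. Cacna1g, which encodes the T-type pore Cav3.1, was at 7.57, 7.97 and 7.32 in hSRY-OFF and 5.07, 4.85 and 5.19 in hSRY-ON. No hSRY-ON array detected its probe, so Cacna1g was at least 4.89-fold lower there, with a fitted log2 difference of -2.58 (standard error 0.19, adjusted p = 0.000182). The other 2 probes of Cacna1g were detected on no array. Cacna1h, which encodes the T-type pore Cav3.2, was at 7.13, 7.10 and 7.08 in hSRY-OFF and 9.11, 9.45 and 9.46 in hSRY-ON. The hSRY-OFF hearts were nearly equal, and all hSRY-ON hearts were about 2 units higher, which made a 4.72-fold increase (2.24 on the log2 scale, standard error 0.13, adjusted p = 7.28e-05). When hearts were left out singly the values stayed between -3.06 and -2.62 for Hcn2 and between 2.18 and 2.35 for Cacna1h, while Cacna1g passed the detection filter in 3 of the 6 cases, at -2.66 to -2.48. The size of both decreases depends on the background correction. From intensities with no background corrected, the log2 fold change was -1.32 for Hcn2 and -1.01 for Cacna1g, against 1.52 for Cacna1h, and all 3 kept their calls. The other pacemaker and T-type related genes gave no test. Of the 3 Hcn3 probes 2 were each detected on 1 array, and Hcn4 was not among the symbols of the array.

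**Figure D3:**
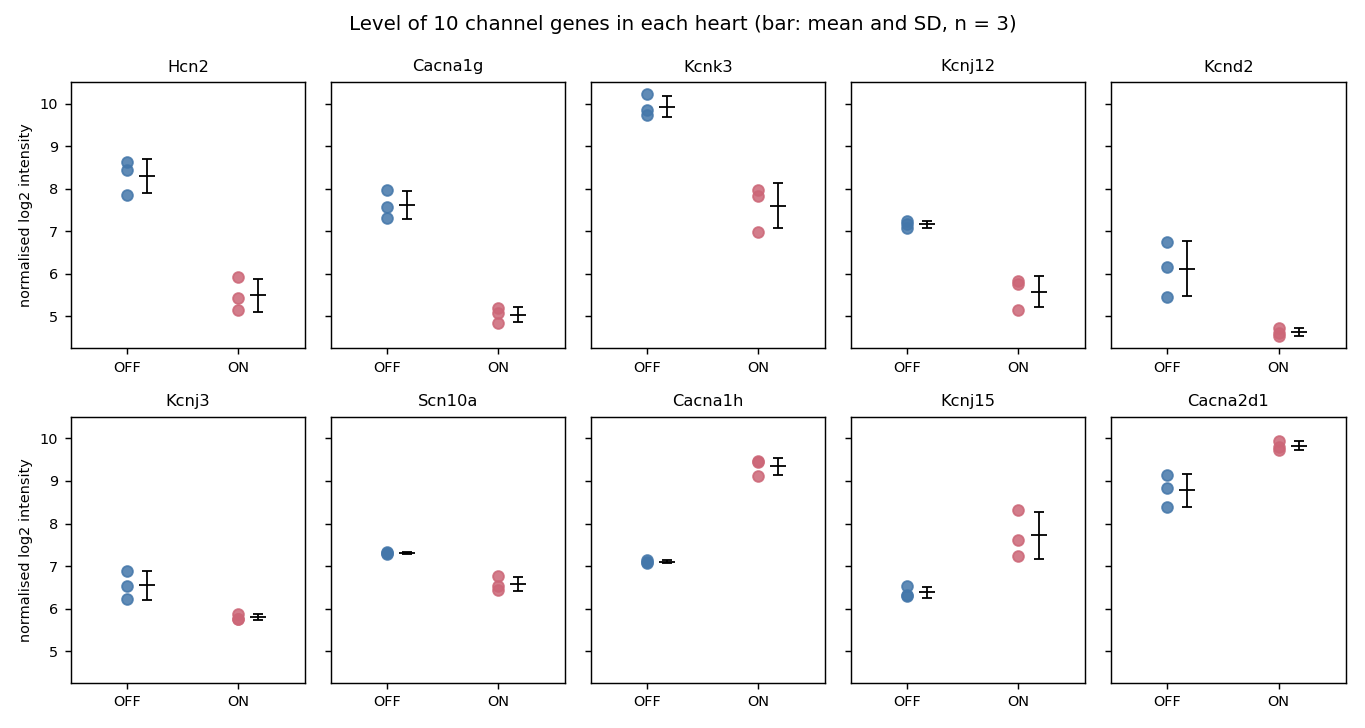
Normalised log2 intensity (vertical axis) of 10 channel genes in each of the 3 hSRY-OFF (OFF) and 3 hSRY-ON (ON) hearts, with the mean and SD of each group as a bar beside its points. In all 10 the groups do not overlap. Cacna1g and Cacna1h lie in opposite directions from their hSRY-OFF levels, by -2.58 and 2.24.

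In the voltage-gated potassium channels, which repolarize the cell, 4 of 8 tested pore probes fell and none rose. Kcnd2, which encodes Kv4.2 of the fast transient outward current, was at 5.47, 6.16 and 6.75 in hSRY-OFF, where the hearts were spread widely, and at 4.62, 4.54 and 4.72 in hSRY-ON. Its probe was detected on all 3 hSRY-OFF arrays and on no hSRY-ON array, so that it was at least 1.74-fold lower, with a fitted log2 difference of -1.50 (standard error 0.29, adjusted p = 0.00822). Without background correction the log2 fold change of Kcnd2 was -0.50. Kcnc4, which encodes Kv3.4, was at 6.47, 6.10 and 6.49 in hSRY-OFF and 5.95, 5.63 and 5.50 in hSRY-ON, and fell by 0.66 on the log2 scale (adjusted p = 0.0257). Kcnh2, which encodes the ERG channel of the rapid delayed rectifier, had its first probe at 10.51, 10.61 and 10.42 in hSRY-OFF and 10.08, 10.22 and 10.002 in hSRY-ON. The groups did not overlap, at a log2 difference of -0.41 (standard error 0.12, adjusted p = 0.0394), and the other tested probe was at -0.25 (adjusted p = 0.179). The calls of Kcnc4 and Kcnh2 depended on single hearts and on the processing. Kcnc4 was between -0.63 and -0.56 and not called when any of hSRY-OFF 1, hSRY-OFF 3, hSRY-ON 2 and hSRY-ON 3 was left out (adjusted p of 0.0584 to 0.0915). It was also not called from uncorrected intensities (-0.21, adjusted p = 0.0805) or without normalization between arrays (adjusted p = 0.0702). Kcnh2 was between -0.42 and -0.36 and not called when any of hSRY-OFF 1, hSRY-OFF 2, hSRY-ON 1 and hSRY-ON 3 was left out (adjusted p of 0.0987 to 0.113), nor without normalization between arrays (adjusted p = 0.31) or with median scaling (adjusted p = 0.052). Kcns1, which encodes a modulatory subunit that forms no channel alone, was not called, at 0.02. Kcnq1, the pore of the slow delayed rectifier, was detected on 1 array and Kcna5 on 2, and Kcnd3 and Kcna4, both of the transient outward currents, on none.

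Among the accessory subunits of these channels 3 of 12 tested probes fell and none rose. Kcne1 encodes the small membrane protein that slows the opening of the Kcnq1 channel. Its brightest probe was at 12.27, 12.58 and 12.11 in hSRY-OFF and 11.70, 11.81 and 11.85 in hSRY-ON. Another probe of Kcne1 was at 8.39, 8.51 and 8.21 in hSRY-OFF and 7.29, 7.29 and 7.17 in hSRY-ON. The log2 fold changes were -0.53 (standard error 0.15, adjusted p = 0.0341) and -1.12 (standard error 0.13, adjusted p = 0.000961), so the 2 called probes gave different sizes. A further probe was at -0.50 (adjusted p = 0.0591) with no overlap between the groups, and was called at -0.64 without hSRY-ON replicate 2, and the dimmest, detected on 4 arrays, was at 0.08. The call of the brightest probe was lost in 5 of the 6 cases with 1 heart left out, that is in each case but that of hSRY-OFF replicate 3, at values of -0.57 to -0.40, and without normalization between arrays (adjusted p = 0.148). The probe at -1.12 kept its call throughout and was at -0.70 from uncorrected intensities. Kcne1l, also named Kcne5, a relative of Kcne1, was at 7.27, 7.29 and 6.87 in hSRY-OFF and 6.37, 6.18 and 6.77 in hSRY-ON. The groups were close at their nearest hearts and the log2 fold change was -0.71 (standard error 0.19, adjusted p = 0.0302). It was not called when replicate 1 or 2 of either group was left out, at -0.67 to -0.57, and was at -0.31 from uncorrected intensities. Kcne4 was at 0.25, the beta subunit gene Kcnab1 at -0.23 and -0.13, and Kcnab2 at 0.10, all not called.

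Kcnip2 encodes KChIP2, which the Kv4 pores need to reach the membrane, and none of its 3 probes was called. Its brightest probe was at 8.91, 8.85 and 8.74 in hSRY-OFF and 8.22, 9.91 and 8.63 in hSRY-ON. The hSRY-OFF hearts lay close together, while hSRY-ON replicate 2 was the highest of the 6 and hSRY-ON replicate 1 the lowest. The other 2 probes gave 6.62 in each of the hSRY-OFF hearts against 6.11, 7.52 and 6.74, and 6.93, 6.90 and 6.81 against 5.85, 7.88 and 6.88. All 3 probes thus put the hSRY-ON hearts in the order 1, 3, 2. The SD over the hSRY-ON hearts was 0.88, 0.71 and 1.02 for the 3 probes and at most 0.09 over the hSRY-OFF hearts. The difference between groups was 0.09 for the brightest probe, with a 95% interval of -0.81 to 0.99 (adjusted p = 0.889). The probes share their RNA samples and are not independent replicates, and the difference in spread was not tested.

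**Figure D4:**
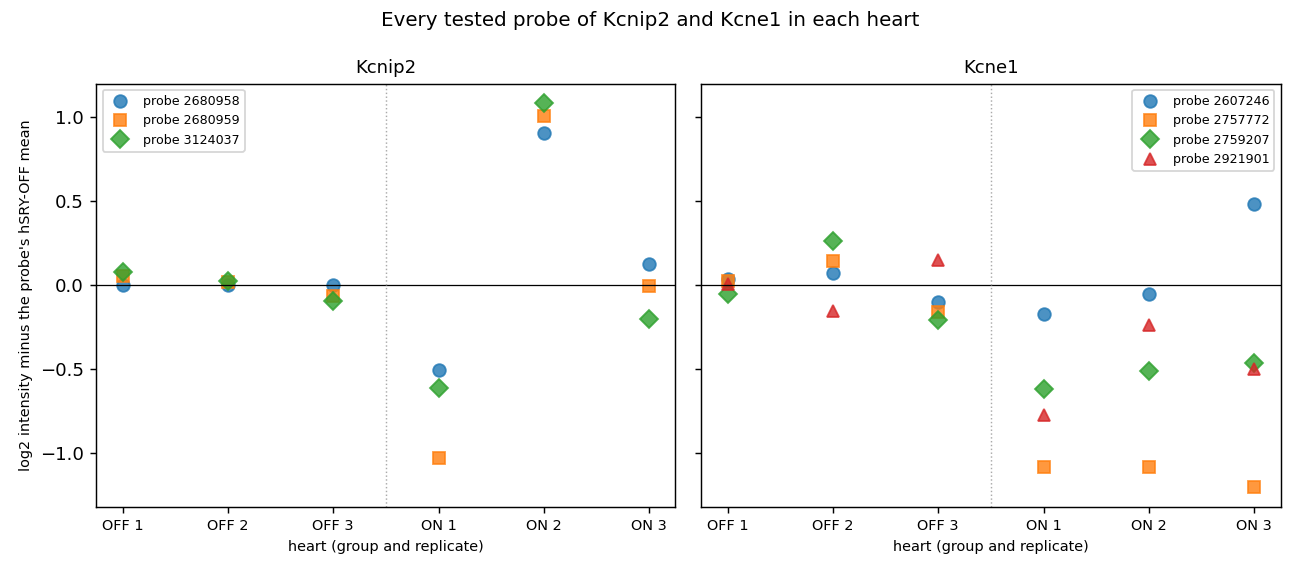
Log2 intensity of each tested probe of Kcnip2 (left) and Kcne1 (right) in each heart, as the difference from the mean of that probe in the hSRY-OFF hearts (vertical axis), with hearts by group and replicate on the horizontal axis. The 3 Kcnip2 probes move together, low in hSRY-ON replicate 1 and high in replicate 2, while 3 of the 4 Kcne1 probes are below the hSRY-OFF mean in all hSRY-ON hearts.

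The inward rectifiers, which hold the resting voltage, and the 2-pore-domain channels, which carry a steady background current, changed in both directions. Kcnj12, which encodes Kir2.2 of the inward rectifier current, was at 7.18, 7.07 and 7.24 in hSRY-OFF and 5.16, 5.76 and 5.83 in hSRY-ON. The hSRY-ON hearts were all more than 1 unit lower, with a mean difference of -1.58 (standard error 0.19, adjusted p = 0.00126), or 2.98-fold. Without background correction it was -0.60. Kcnj2, which encodes Kir2.1, the main pore of the same current in the ventricle, was at 6.04, 6.17 and 5.28 in hSRY-OFF and 5.06, 4.97 and 5.63 in hSRY-ON. The groups overlapped and the change of -0.61 was not called (95% interval -1.25 to 0.02), but it was -0.92 and called without hSRY-OFF replicate 3 (adjusted p = 0.028). Kcnj3, which encodes a subunit of the atrial channel opened by acetylcholine, was at 6.53, 6.22 and 6.88 in hSRY-OFF and 5.74, 5.87 and 5.76 in hSRY-ON. The difference was -0.75 (standard error 0.18, adjusted p = 0.0178). Its call was lost without hSRY-OFF replicate 1 (-0.75) or hSRY-ON replicate 1 (-0.73), both at an adjusted p near the threshold, 0.0563 and 0.0566. From uncorrected intensities it was at -0.27. Its partner Kcnj5 was detected on no array. Kcnj15, which encodes Kir4.2, best known from kidney and other epithelia, was at 6.54, 6.29 and 6.32 in hSRY-OFF and 8.33, 7.61 and 7.23 in hSRY-ON. It rose by 1.34 (standard error 0.26, adjusted p = 0.00859), and the hSRY-ON hearts were more spread than the controls. Without background correction the rise was 0.67. The other probes of Kcnj15 were detected on no array. Kcnj8, which encodes the ATP-sensitive pore Kir6.1 of vascular cells, was at 8.52, 8.88 and 8.60 in hSRY-OFF and 9.35, 9.78 and 8.84 in hSRY-ON. The groups overlapped and the difference was 0.66 (95% interval 0.11 to 1.21, adjusted p = 0.0763). It was called at 0.90 without hSRY-ON replicate 3 (adjusted p = 0.0187), and from uncorrected intensities (0.52, adjusted p = 0.0461).

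Kcnk3, which encodes TASK-1, a background channel closed by acid, was at 9.85, 9.73 and 10.22 in hSRY-OFF and 6.99, 7.84 and 7.98 in hSRY-ON. It was detected on all 6 arrays, the groups were far apart, and the log2 fold change was -2.33 (standard error 0.27, adjusted p = 0.00108), a 5.03-fold decrease that stayed at -1.73 without background correction. Kcnk5, which encodes TASK-2, a relative opened by alkaline conditions, was at 5.08, 5.78 and 5.34 in hSRY-OFF, where 1 array detected it, and 6.68, 5.85 and 6.17 in hSRY-ON. The other probes of Kcnk5 were detected on no array. The difference for the tested probe was 0.83 (standard error 0.25, adjusted p = 0.0447). This call was lost when replicate 1 or 3 of either group was left out, at 0.62 to 0.86, and from uncorrected intensities (0.26, adjusted p = 0.0804), without normalization between arrays (adjusted p = 0.115), with median scaling (adjusted p = 0.0579) and with no probe filter (adjusted p = 0.0786). The mechanically gated Kcnk2 (TREK-1) was at -0.40 and not called. The 2 tested probes of Kcnk6 had opposite signs, at 0.20 and -0.65, with neither called (adjusted p = 0.313 and 0.0537). Of the calcium-activated potassium channels the probe of Kcnn1 was the only one tested and was not called by limma, at -0.47 (unadjusted p under 0.05 in 1 of 1, adjusted p = 0.0908).

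Both tested sodium channel pores fell. Scn10a, which encodes Nav1.8, best known from sensory neurons, was at 7.29, 7.32 and 7.32 in hSRY-OFF and 6.76, 6.43 and 6.54 in hSRY-ON. The hearts of each group lay close together and did not overlap with the other group, and Scn10a fell by 0.73 (standard error 0.13, adjusted p = 0.00533). The call was kept with each heart left out, while without background correction the change was -0.34. The beta subunits, which anchor the pores and tune their gating, were dim and not called. Scn4b was at -0.29 (95% interval -0.65 to 0.08), Scn3b at 0.05 (-0.45 to 0.55) and Scn2b at 0.32 (-0.01 to 0.64).

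The accessory subunits of the voltage-gated calcium channels were divided by family. The alpha2delta subunits, which sit outside the membrane and raise the number of channels there, both rose. Cacna2d1 was at 8.38, 8.83 and 9.15 in hSRY-OFF and 9.95, 9.74 and 9.80 in hSRY-ON. The log2 fold change was 1.04 (standard error 0.20, adjusted p = 0.00766), 2.06-fold, and the controls were the more spread group. Cacna2d3 was detected on no hSRY-OFF array and all 3 hSRY-ON arrays, at least 1.17-fold higher (adjusted p = 0.00529), close to the background in both groups. Its fitted change of 0.81 was 0.24 from uncorrected intensities, and its call was lost without normalization between arrays (adjusted p = 0.124). Cacnb2 encodes the beta subunit known as the main partner of the L-type channel in heart, and both of its probes fell. The brighter was at 8.12, 7.97 and 8.12 in hSRY-OFF and 7.36, 7.10 and 7.40 in hSRY-ON, with a difference of -0.79 (standard error 0.13, adjusted p = 0.0043). The dimmer was at 7.30, 7.43 and 6.83 against 5.08, 5.77 and 6.25, a change of -1.49 (standard error 0.30, adjusted p = 0.00936). The groups did not overlap in either probe. From uncorrected intensities the changes were -0.47 and -0.58, and both probes were still called. Cacnb3, another beta subunit, had 3 tested probes at 0.45, 0.44 and 0.18. Only that at 0.45 was called (adjusted p = 0.0206), and it was not called without replicate 1 of either group or hSRY-OFF replicate 2 (0.43 to 0.48), nor under 5 other settings, among them no background correction (0.15). The probe at 0.44 was called without hSRY-OFF replicate 3 (0.62, adjusted p = 0.0373). Cacnb1 and Cacnb4 were at 0.12 and -0.24 and not called.

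A few calls lay at the edge of what the arrays could measure. Of the 50 tested channel probes 4 were detected in 1 group only, namely Cacna1g, Kcnd2, Cacna2d3 and Kcnrg, and all 4 were called, where 87.2% of all such probes on the array were. Kcnrg, which encodes a regulator of potassium channel assembly and no channel itself, was at least 1.19-fold higher in hSRY-ON (fitted log2 fold change 0.81, adjusted p = 0.0492). It was the call nearest the threshold and was lost without hSRY-OFF replicate 2 (0.69) or 3 (0.71). It was also lost from uncorrected intensities (0.26, adjusted p = 0.0781), without normalization between arrays (adjusted p = 0.129), with median scaling (adjusted p = 0.0521) and with no probe filter (adjusted p = 0.0863). The other probe of Kcnrg was detected on 1 array and was not tested. The nearest probe on the other side of the threshold was that of Kcnk6 at an adjusted p of 0.0537. Several other members were detected on 2 arrays of 1 group and on none of the other, and were not tested. Kcnip3 and Kcnab3, which encode accessory subunits of voltage-gated potassium channels, were at least 1.23-fold and 1.06-fold lower in hSRY-ON. Kcna1, which encodes Kv1.1, and the 2-pore-domain gene Kcnk1 were at least 1.19-fold and 1.1-fold higher, and Kcnu1 gave no bound. All 5 lay close to the background. Of the 23 calls 14 were kept under each of the alternative settings and with each heart left out in which the probe could be tested, and no called probe changed its sign. They include the probes of Hcn2, Cacna1g, Kcnk3, Kcnj12, Kcnd2, Scn10a, Cacna1h, Kcnj15 and Cacna2d1, both of Cacnb2 and 1 of Kcne1. Cacna1g and Kcnd2, detected in hSRY-OFF only, could be tested in 3 of the 6 cases with 1 heart left out. With any hSRY-OFF heart left out they did not pass the detection filter, so those cases could not end their calls. Of the 27 genes drawn up as carriers of the known currents of the mouse heart 25 were on the array and 18 were tested. Among these 11 had at least 1 probe that fell and 2, Cacna1h and Cacna2d1, rose. Kcne1 and Kcnh2 are counted as fallen although other tested probes of each were not called. Over all tested genes, by the brightest probe of each, 13.9% fell and 14.9% rose. The list of 27 genes was drawn up with earlier results of these data known.

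Genes whose products act beside the channels were counted in 3 lists, with the brightest tested probe of each gene. Of 9660 tested genes 13.9% fell and 14.9% rose, with a median log2 fold change near 0. In the list of channel partners, which anchor, couple or modify channels, 10 of 24 tested genes fell and 4 rose, with a median of -0.43. The gap junction gene Gja1, which encodes connexin 43 of the working muscle, was at -1.41, and Gjc1 (listed as Gja7), which encodes connexin 45, at -1.56, while Gja5, connexin 40 of atrium and fast conduction, was at 1.32. The channel anchors Ank2 and Cav3 were at -1.26 and -0.996. Fgf12, an intracellular partner of sodium channels, rose by 1.29, and Nedd4l, a ubiquitin ligase that removes them, by 0.70. Abcc9, the partner of Kcnj8 in ATP-sensitive channels, fell by 0.74. In the list of pumps and exchangers of the same ions 4 of 17 tested genes fell and 5 rose, with a median of -0.09. Of the sodium pump beta subunit genes, Atp1b2 was at -0.79 and Atp1b1 at 0.44, both called, and Atp1b3 at 0.22 and not called. The sodium-calcium exchanger gene Slc8a1 was at -0.25 and not called. In the list of transcription factors that pattern the cardiac channels 4 of 18 tested genes fell and 4 rose, with a median of -0.04. Those that fell were Irx4 (-2.01), Irx3 (-1.26), Hey2 (-0.79) and Irx5 (-0.58), and those that rose were Tbx5 (1.09), Etv1 (0.82), Nkx2-5 (0.68) and Gata6 (0.45). The counts of the last 2 lists fell to 5 without hSRY-OFF replicate 1, hSRY-ON replicate 1 or hSRY-ON replicate 2, and without normalization between arrays to 5 and 4.

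Markers of the cells in the heart moved with the groups to different degrees, as the sum of normalized intensities over the brightest probe of each gene in a list. All 9 cardiomyocyte markers on the array were tested, and 4 fell (Myh6, Tnni3, Pln and Ryr2), and the sums were 180972 to 190985 in the controls against 161631 to 175432 with hSRY-ON. Of the 7 atrial markers 2 rose and 1 fell, with overlapping sums of 95826 to 97483 and 79416 to 100465, and of the 4 ventricular markers 1 rose and 2 fell, with 43516 to 45939 and 49914 to 53311. Myh7, the slow myosin heavy chain, was the only ventricular marker with a higher mean in hSRY-ON (2.94), while Irx4 and Hey2 fell and Myl2 was at -0.02 and not called, so the higher sum came from Myh7 alone. Conduction system markers, of which 2, Tbx18 among them, were detected on no array, had sums of 513 to 731 in the controls and 279 to 332 in the hSRY-ON hearts. Of its 4 tested genes 2 fell, Cacna1g and Gjc1 (listed as Gja7), both already given above, and the lower sum came mostly from them. The other 2, Tbx3 (-0.53) and Shox2 (0.02), were not called. Of the 8 macrophage markers 5 rose, with sums of 3091 to 4050 in the controls against 6688 to 7513. Smooth muscle and pericyte markers, which include Kcnj8 and Abcc9, rose in 2 and fell in 1 of 8 tested genes, with 30628 to 36378 and 43151 to 46107. Acta2, at a mean of 14.74 in the controls and 15.27 in hSRY-ON, made up most of these sums. In the skeletal muscle list, several of whose genes the heart also expresses, 5 of 6 tested genes fell, with sums of 20112 to 22355 against 8388 to 11106. Ckm, at a mean of 14.07 in the controls and 13.16 in hSRY-ON, made up most of these sums. Myod1, Myh4 and Tnnt3 were detected on no array. Of the 13 neuronal markers 7, among them Snap25 and Syt1, were detected on no array. Of 4 tested genes 1 rose (Uchl1, 1.35) and 2 fell (Stmn2, -0.52, and Dbh). No hSRY-ON array detected Dbh, so it was at least 4.81-fold lower there, with a fitted log2 difference of -2.56. The sums were 1426 to 1551 in the controls and 2007 to 2475 in hSRY-ON, and the higher sum came mostly from Uchl1. Glial markers had sums of 243 to 294 and 239 to 291, and neither of the 2 tested genes was called. Endothelial ones had 29246 to 31526 and 28828 to 31338. Of 8 tested, 2 rose (Vwf and Emcn) and 3 fell (Cdh5, Tek and Esam). Fibroblast ones had 31576 to 33854 and 28866 to 32200, and of 7 tested 1 rose (Tcf21). Erythroid ones had 51120 to 63600 and 51697 to 56619. Hba-a1, at a mean of 15.46 in the controls and 15.49 in hSRY-ON, made up most of these sums. Of 6 tested erythroid genes 2 fell, Hbb-b1 (-1.29) and Hbb-b2 (-1.20). The part of these cells in the channel changes was not tested.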

How the data were processed

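Total RNA from 3 hSRY-ON and 3 hSRY-OFF hearts was hybridized to MouseRef-8 v2.0 BeadChips. The authors deposited linear mean bead intensity values per probe, not normalized and with no background subtracted. The deposited detection p-value sets each probe against the negative controls on its array. No software for the bead summary is given in the sources used here, and the methods name the R package TCC for normalization and testing with no settings, so an array test was used instead. Groups and replicate numbers came from the sample labels.

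With R 4.3.3 and limma 3.58.1, neqc was run on these values (normal-exponential background model inferred from detection p-values, offset 16, quantile normalization, log2). Probes with a detection p under 0.05 on at least 3 of 6 arrays (12970) were fitted with lmFit and eBayes, group being the only term. Tests were two-sided with Benjamini-Hochberg adjustment across these probes, and a probe was called at an adjusted p under 0.05. For a probe that 1 group detected on none of its arrays, the fold change is a lower bound, taken against the higher of the lowest detected signal and its own signal on each array. The number of arrays limits the precision. The p-values set the difference between the groups against the spread between these hearts, which eBayes moderates with the spread of all tested probes. With 3 hearts against 3 the smallest two-sided exact permutation p is 0.1. The steps were tested on simulated data with 200 changed probes.

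The named genes are the called probes with the largest rise and fall of each class and subclass (up to 3 each way). Also named are 27 genes of the known cardiac currents and every tested probe of a named gene. Members of counts of 5 or fewer are named too, as are members detected in 1 group only. In the lists of other genes and of markers, genes are named outside this rule after their values were seen. The members and lists were chosen with earlier results of these data known. Some genes that the symbol pattern or the lists take in are not reported here by name or in the plots, and 1 of them is in no count of members. All 118 gene symbols matched the RefSeq annotation of GRCm38.p6. Alternatives were no background correction, normexp with an offset of 50, no normalization or median scaling between arrays, no probe filter, detection on all 6 arrays or at 0.01, eBayes with trend and robust, the replicate number as a block, the brightest probe of each gene, and each heart left out.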

Additional observations from a re-analysis of the deposited data

How the results depend on the processing

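With all settings the number of channel probes that fell stayed within 1.5 times of 16 when all hearts were used, at 12 to 19, and the 2 sodium channel calls were made under each setting. The number that rose, 7, was 3 without normalization between arrays and 4 with detection required on all 6 arrays. Without normalization between arrays 8 potassium channel probes were called, 5 pump and exchanger genes, 4 transcription factor genes and 1897 probes of the whole array. With detection on all 6 arrays 32 channel probes were tested, the Hcn count was 0 because Hcn2 was then not tested, and 4 calcium channel probes were called. Without a probe filter 5 transcription factor genes were called. With the brightest probe of each gene 13 genes fell and 6 rose.

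Leaving out 1 heart at a time, the channel probes that rose numbered 3 to 6 and those that fell 9 to 14. Potassium channel calls were 6 to 10, calcium channel calls 5 to 7, channel partners 10 to 16, pumps and exchangers 5 to 7, transcription factors 5 to 8, and calls over the whole array 2206 to 3669. The lowest count over the whole array was that without hSRY-OFF replicate 1. The cause was not tested.

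For hearts of the same replicate number the correlations of their deviations from the group means were -0.02, 0.04 and -0.07. Those for hearts of different numbers were between -0.06 and 0.09. With 3 hearts in each group these values cannot decide whether the number pairs them. With the replicate number as a block 5 channel probes rose and 13 fell, and 2842 probes of the array were called against 3567. The block ended the calls of the brightest Kcne1 probe (adjusted p = 0.0613), Kcne1l (0.0793), Kcnh2 (0.0643), Kcnk5 (0.106) and Cacnb3 (0.0506) and no other call of a channel probe. Genes detected on fewer than 3 arrays are not measured at this signal over background.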
